A study of Mus musculus with 6 samples.

Results

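The cholesterol and fatty acid metabolism genes described here are 40 genes chosen by symbol, 15 enzymes of sterol synthesis, 4 sterol regulators, 8 enzymes of fatty acid synthesis and desaturation, 5 genes of cholesterol efflux and the liver X receptors (LXR), and 8 genes of lipid uptake and storage. All 40 were found among the 17830 genes of the count table, and all 40 were among the 13484 genes with enough counts to be tested. RNA was sequenced from cultured skull osteoblasts of mice at 6 months of age, in 3 libraries of mOCN-Cre; Ai9 mice (Ctrl) and 3 of TgAPPswe mOCN-Cre; Ai9 mice (APPswe). TgAPPswe is a transgene for human amyloid precursor protein with the Swedish mutations, driven by the broadly active CAG promoter behind a stop cassette that Cre removes. mOCN-Cre is a Cre knock-in at Bglap, the osteocalcin gene, and Ai9 is a Cre-dependent tdTomato reporter, and both alleles were carried by the controls too. Skull bone fragments were kept in culture before tdTomato+ cells were sorted, a gate meant to take cells in which Bglap had been active. The comparison asks how lipid metabolism genes differed in osteoblasts that carried the APPswe transgene.

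Cholesterol is built from acetyl-CoA through mevalonate, the isoprenoid farnesyl diphosphate, squalene and lanosterol, and long-chain fatty acids are built from acetyl-CoA by carboxylation, chain elongation and desaturation. The enzymes of both routes are targets of the SREBP transcription factors, which the escort protein Scap carries to the Golgi for activation and which Insig proteins hold back in the endoplasmic reticulum when sterols are plentiful. LXR nuclear receptors respond to oxysterols and act on genes of cholesterol export such as Abca1 and Abcg1, and on Srebf1, while imported lipid that is not used is kept as esters in lipid droplets.

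The libraries held 17263757 to 18398392 counts on genes, so that 3 counts, taken as the floor of detection, corresponded to 0.167 to 0.173 CPM, a unit that puts TMM-normalised counts of all libraries on 1 depth. Counting error is the only error this floor covers. The library labelled Ctrl 2 stood apart from the others. It had 2 counts over 4 Y-linked genes against 2257 to 3406 in the other libraries, although the mice are described as male, and 1 count on Bglap against 115 to 204. Of the bone genes Ibsp and Alpl it had 3 and 35 counts, against 940 to 1468 and 752 to 1357. Among 12 osteoblast markers it was the lowest library for 8. It was the highest for 2, the type I collagen genes Col1a1 and Col1a2 (5705 and 5732 CPM). Its library name carries the letter S where the other 5 carry an L, letters that the labels do not explain, and whether it came from another kind of animal or cell population was not tested. The summed level of 6 proliferation markers was 814 CPM in Ctrl 2 and 292 to 326 CPM in the other libraries. Type I collagen Col1a1 was at 4081 to 5705 CPM in Ctrl and 3585 to 4190 CPM in APPswe, but the libraries did not hold osteoblast RNA alone. The macrophage gene Lyz2 was at 9772 to 16084 CPM in Ctrl and 7148 to 7879 CPM in APPswe, above Col1a1 in every library, and Csf1r, the receptor of a macrophage growth factor, was at 778 to 1362 and 935 to 939 CPM. The labels' word osteoblast is therefore used here for the sorted population and not for pure cells. In bulk RNA, fewer cells of a type and less RNA per cell cannot be told apart. App was at 983 to 1287 CPM in Ctrl and 1015 to 1048 CPM in APPswe, and the human transgene had no row of its own to check the labels with. The labels do not say that the libraries came from separate animals or cultures, so the p-values measure the spread between these libraries, which may be technical.

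Most of the 40 genes were lower in APPswe. The edgeR quasi-likelihood test with Benjamini-Hochberg adjustment over all genes gave 23 of the 40 as lower at an adjusted p of at most 0.05 (12% of all genes tested were lower), and 0 as higher (10.5% of all genes). Of the listed genes, 2 were higher at an unadjusted p of at most 0.05, 1 was higher by DESeq2 and 2 by limma on the deposited FPKM. With a log2 fold change of at most -1 as well, 9 genes were called lower (3.6% of all genes) and 0 higher (3.74%, with 7.34% called in either direction), while DESeq2 and limma called 1 higher. A fitted value below 0 was found for 37 of the 40 genes (50.4% of all genes). In 29 genes every APPswe library lay below every Ctrl library (22.2% of all genes), and in 2 every APPswe library lay above (22.8%). The median log2 fold change was -0.67 over the 40 genes and -0.0033 over all genes. Without Ctrl 2, 28 of the 40 were lower (25% of all genes), 2 were higher (23.3%), 9 were called lower (6.58%) and 1 higher (4.87%), and the median was -0.51.

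**Figure D1:**
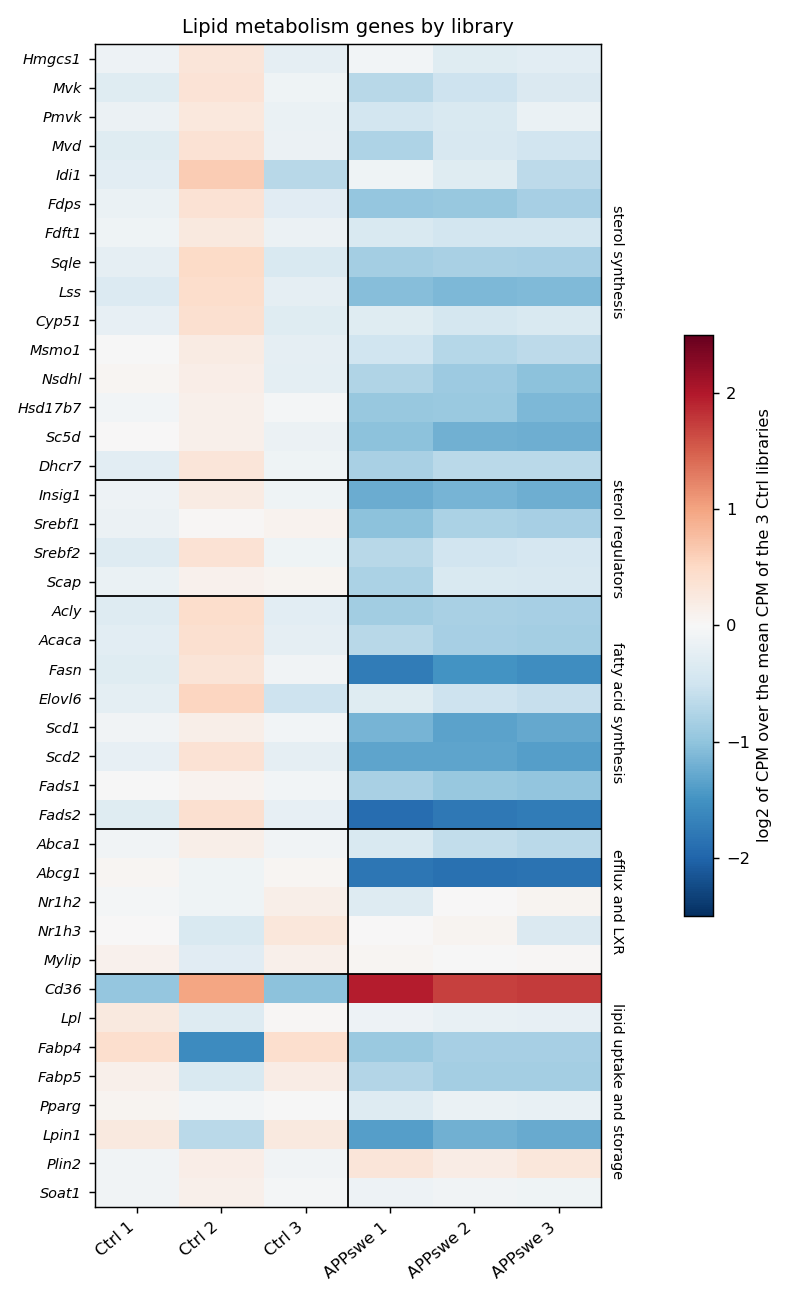
Distance of each of the 40 genes from its Ctrl mean on the log2 CPM scale (colour), with genes in rows by class and the 6 libraries in columns. The APPswe columns are below the Ctrl mean for most sterol and fatty acid synthesis genes, Cd36 stands out in the opposite direction, and Ctrl 2 is the highest library for all 15 sterol synthesis and all 8 fatty acid synthesis genes.

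The classes differed in how many of their members passed. The 8 fatty acid synthesis genes had the lowest median log2 fold change, -1.09, with 7 lower, and the 4 sterol regulators had a median of -0.71 with 3 lower. Of the 15 sterol synthesis genes 9 were lower, with a median of -0.62. The efflux and LXR genes had a median of -0.08 with 2 of 5 lower, and the uptake and storage genes a median of -0.20 with 2 of 8 lower. Beside each of these class counts, 12% of all genes tested were lower. The differences between classes were not tested. Without Ctrl 2 the medians were -1.0, -0.66, -0.50, -0.23 and -0.28 in the same order. The libraries' names come in a hyphen style (Ctrl 1, Ctrl 2 and APPswe 1) and a style without one (Ctrl 3, APPswe 2 and APPswe 3), whose deposited FPKM columns have different blank genes. Among the hyphen-named libraries the medians were -1.09, -0.87, -0.84, -0.25 and -0.24, and among the other libraries -1.02, -0.68, -0.43, -0.41 and -0.19, again in that order. Macrophage markers differed in both directions: 7 of 13 were lower (12% of all genes) and 1, Aif1, was higher (10.5%). Without Ctrl 2, 10 were lower (25% of all genes) and 2, Aif1 and Csf1r, were higher (23.3%). Aif1 was called higher at 1.18 (SE 0.26, edgeR adjusted p = 0.0205). Csf1r was at -0.07 with all 6 libraries and at 0.23 without Ctrl 2. No macrophage marker was at 0 in any library, and their summed level was 16199 to 22052 CPM in Ctrl and 11255 to 12109 CPM in APPswe. Endothelial markers also differed, with 2 of 6 lower (12% of all genes), or 6 of 6 without Ctrl 2 (25%). Their summed level was 81.8 to 243 CPM in Ctrl and 23.9 to 25.6 CPM in APPswe. Ctrl 2 was the lowest library for 4 of the 6, with almost none of Pecam1 (0.0562 CPM). For Kdr (25.5 CPM) and Vwf (55.0 CPM) it was the highest library. The part of these markers in the lipid gene values was not tested.

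**Figure D2:**
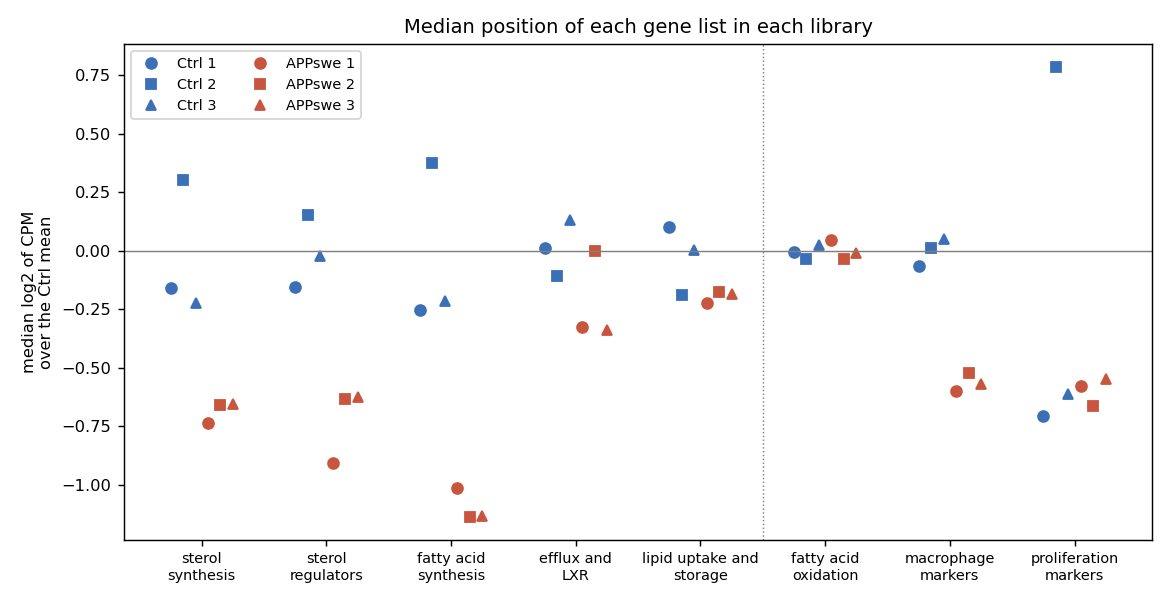
Median log2 distance from the Ctrl mean over the genes of each class and of 3 other lists (vertical axis), with 1 point per library. The fatty acid synthesis medians run from -0.25 to 0.37 in Ctrl and from -1.14 to -1.01 in APPswe, and the proliferation markers are at 0.79 in Ctrl 2 and at -0.71 to -0.55 in the other libraries.

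The sterol synthesis genes that passed as lower with all 6 libraries lay from farnesyl diphosphate synthase, Fdps, onward. The fitted values did not split as cleanly. The early Mvk and Mvd had log2 fold changes of -0.52 and -0.54, below the later Fdft1 and Cyp51 at -0.43 and -0.37. The other later enzymes were below both Mvk and Mvd. Of the 5 enzymes from Hmgcs1 to Idi1, which make the isoprenoid units, 0 passed by edgeR (12% of all genes were lower). At an unadjusted edgeR p of at most 0.05, 2 were lower, and DESeq2 gave 1 as lower. The median log2 fold change of the 5 was -0.34. Of the 10 enzymes from Fdps to Dhcr7, which lead to cholesterol, 9 were lower (12% of all genes) with a median of -0.86. Without Ctrl 2, 2 of the 5 and 9 of the 10 were lower (25% of all genes), with medians of -0.18 and -0.61. The difference between these stretches was not tested.

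The promoters of an early enzyme that did not pass, Hmgcs1, of the later enzymes Msmo1 and Hsd17b7, which did, and of Fasn from the fatty acid class are shown because the CCAAT box, the site of the factor NF-Y that works with SREBP at sterol genes, was found in every sterol synthesis gene with a window. The windows are RefSeq sequences of GRCm38.p6 from 250 bases before to 50 bases after each start, written 5′ to 3′ on the gene's strand, and 30 of the 40 genes had one or more. Capitals mark the letters CCAAT or their reverse complement ATTGG, and, in Hmgcs1, TCACNCCAC, a sterol element, on either strand. Hmgcs1 (chr13:119690101-119690400, plus strand) had 4 CCAAT matches, Msmo1 (chr8:64733529-64733828, minus strand) 3, Hsd17b7 (chr1:169969156-169969455, minus strand) 3 and Fasn (chr11:120824498-120824797, minus strand) 3, of which 2 in Fasn overlap each other.
Hmgcs1: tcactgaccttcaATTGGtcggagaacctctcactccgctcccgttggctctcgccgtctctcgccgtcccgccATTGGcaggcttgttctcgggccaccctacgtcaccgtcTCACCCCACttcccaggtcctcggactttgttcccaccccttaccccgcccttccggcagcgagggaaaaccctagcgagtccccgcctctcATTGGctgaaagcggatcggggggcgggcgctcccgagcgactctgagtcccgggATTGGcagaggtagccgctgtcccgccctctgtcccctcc
Msmo1: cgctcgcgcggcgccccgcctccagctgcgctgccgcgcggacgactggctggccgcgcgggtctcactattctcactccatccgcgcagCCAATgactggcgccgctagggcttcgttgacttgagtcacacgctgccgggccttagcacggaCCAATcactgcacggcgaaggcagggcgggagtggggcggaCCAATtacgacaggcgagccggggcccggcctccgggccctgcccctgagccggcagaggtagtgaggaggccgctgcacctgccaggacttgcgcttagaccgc
Hsd17b7: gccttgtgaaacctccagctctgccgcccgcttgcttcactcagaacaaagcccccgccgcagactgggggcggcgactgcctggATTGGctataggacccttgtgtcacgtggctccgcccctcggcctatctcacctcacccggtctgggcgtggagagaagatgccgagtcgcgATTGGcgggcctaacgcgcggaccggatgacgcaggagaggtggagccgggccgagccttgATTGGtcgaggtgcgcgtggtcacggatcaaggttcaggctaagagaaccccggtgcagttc
Fasn: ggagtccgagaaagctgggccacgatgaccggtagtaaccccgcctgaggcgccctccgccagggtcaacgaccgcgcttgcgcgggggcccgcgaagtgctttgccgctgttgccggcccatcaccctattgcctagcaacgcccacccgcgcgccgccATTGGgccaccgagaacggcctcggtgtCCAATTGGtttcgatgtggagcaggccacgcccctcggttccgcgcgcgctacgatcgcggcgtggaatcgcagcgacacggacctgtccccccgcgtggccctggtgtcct
A CCAAT box was present in 12 of 12 sterol synthesis genes, 3 of 4 regulators, 2 of 5 fatty acid synthesis genes, 1 of 4 efflux and LXR genes and 4 of 5 uptake and storage genes, in all 22 of 30, or 73.3%. Among all 27025 genes with a window 41.1% had one, and among all 32851 windows 37.4%. TCACNCCAC was found in 1 of the 30 genes, Hmgcs1, against 1.44% of all genes with a window. By windows it was in 1 of 39, against 1.24% of all windows. Hmgcs1 with 4 matches did not pass the RNA test described next, and neither did Mvk with 5 or Cyp51 with 1. Msmo1, Hsd17b7 and Fasn with 3 matches passed, as did Nsdhl with 4 and Lss and Sc5d with 1. A link between the number of matches and the RNA result was not tested. A match is a string of letters and not a measured site, and no matching letters in a window say nothing about binding elsewhere.

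Hmgcs1 makes the precursor of mevalonate from acetyl-CoA units and was at 127, 171 and 118 CPM in Ctrl 1, 2 and 3 and at 132, 112 and 115 CPM in APPswe 1, 2 and 3. The groups overlapped, and the log2 fold change was -0.21 (SE 0.15, edgeR adjusted p = 0.36). Mvk, the mevalonate kinase, Pmvk, which adds the next phosphate, and Mvd, the decarboxylase that follows, had lower values in every APPswe library than in every Ctrl library, for Pmvk by less than 0.1 CPM between the nearest libraries. Their log2 fold changes were -0.52, -0.33 and -0.54, with edgeR adjusted p of 0.0871, 0.165 and 0.0918. Idi1, the isomerase that gives the reactive isoprenoid unit, overlapped between groups at 45.8 to 116 CPM in Ctrl and 47.1 to 68.9 CPM in APPswe. Its fitted log2 fold change of -0.34 became 0.13 without Ctrl 2. Without that library Mvk and Mvd passed the test, each at -0.31.

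Farnesyl diphosphate synthase Fdps (NCBI gene 110196, chr3:89093588-89101967, as for all positions in GRCm38.p6) was at 148, 213 and 135 CPM in Ctrl and 84.9, 86.1 and 92.8 CPM in APPswe. Every APPswe library was below every Ctrl library, with a log2 fold change of -0.91 (SE 0.17, edgeR adjusted p = 0.0132). Squalene epoxidase Sqle (NCBI gene 20775, chr15:59315092-59331193), a rate-limiting step after squalene, was at 91.2, 148 and 81.6 CPM in Ctrl and 59.6, 60.6 and 60.2 CPM in APPswe. The Ctrl values of Sqle were pulled apart by Ctrl 2, and the log2 fold change of -0.83 (SE 0.22, edgeR adjusted p = 0.0374) became -0.52 without it. Lanosterol synthase Lss (NCBI gene 16987, chr10:76531565-76557139), which closes the sterol rings, was at 55.6, 96.4 and 60.7 CPM in Ctrl and 33.8, 32.5 and 32.9 CPM in APPswe, and was called lower at -1.10 (SE 0.21, edgeR adjusted p = 0.013). Without Ctrl 2 its value was -0.81, short of the fold needed for a call. Lss did not pass with limma on the deposited FPKM (adjusted p = 0.0689), where its counts and FPKM imply a length of 4133 bases in Ctrl 2 and of 5726 to 6076 bases in the other libraries. Squalene synthase Fdft1 was lower at -0.43 (SE 0.12, edgeR adjusted p = 0.041), but its locus overlaps Ctsb, with a mean of 149089 counts, so its count is uncertain where strand was not used. Leaving out any 1 of the 3 APPswe libraries ended the call at adjusted p for Fdps, Fdft1, Sqle and Lss, whose highest edgeR adjusted p was then 0.0705, 0.154, 0.129 and 0.0681, and leaving out Ctrl 1 ended it for Fdft1 and Sqle.

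After lanosterol, Cyp51, the demethylase, was the exception: it was at 115, 177 and 108 CPM in Ctrl and 108, 99.2 and 102 CPM in APPswe. APPswe 1 lay just above Ctrl 3, so the groups overlapped, and its log2 fold change was -0.37 (SE 0.19, edgeR adjusted p = 0.197). Msmo1, the methyl sterol oxidase, and Nsdhl, its dehydrogenase partner, were lower at -0.62 (SE 0.13, edgeR adjusted p = 0.0168) and -0.89 (SE 0.13, edgeR adjusted p = 0.00544). Hsd17b7 (NCBI gene 15490, chr1:169949535-169969242), the sterol ketoreductase of the same complex, was at 43.1, 49.2 and 43.7 CPM in Ctrl and 23.6, 24.0 and 20.8 CPM in APPswe, a mean of 45.3 ± 3.40 CPM in Ctrl and 22.8 ± 1.73 CPM in APPswe (SD, n = 3). Its log2 fold change was -0.99 (SE 0.10, edgeR adjusted p = 0.00157), just short of the fold used for a call. Sc5d (NCBI gene 235293, chr9:42251592-42264300), the sterol desaturase near the end of the route, was at 111, 120.2 and 100.4 CPM in Ctrl and 54.5, 48.3 and 47.4 CPM in APPswe. With every Ctrl library at more than 100 CPM and every APPswe library under 55 CPM, it was called lower at -1.14 (SE 0.10, edgeR adjusted p = 0.00103). Dhcr7, the reductase that yields cholesterol, was lower at -0.72 (SE 0.15, edgeR adjusted p = 0.0195). Leaving out Ctrl 2 left the values of Nsdhl, Hsd17b7 and Sc5d at -0.80, -0.93 and -1.08. Leaving out any 1 APPswe library ended the call of Dhcr7, and leaving out APPswe 2 or APPswe 3 that of Msmo1, with highest edgeR adjusted p of 0.0850 and 0.0876.

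**Figure D3:**
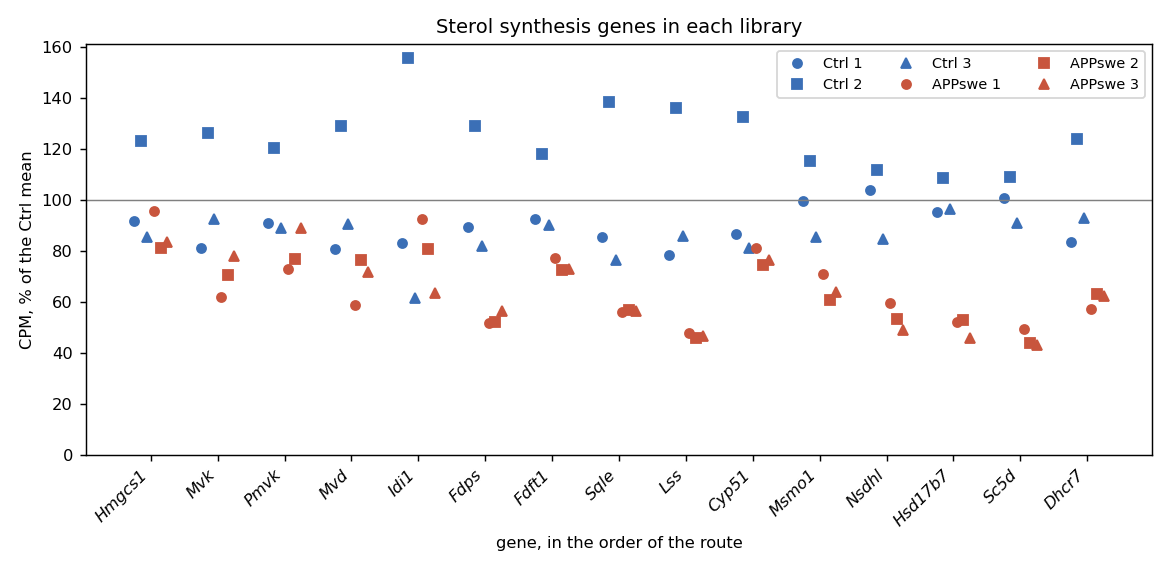
CPM as a percentage of the Ctrl mean (vertical axis) for the 15 sterol synthesis genes in route order, with 1 point per library. Ctrl 2 is the highest point of every gene, and the APPswe mean is 86.6% of the Ctrl mean for Hmgcs1, 53.3% for Fdps, 77.2% for Cyp51 and 45.3% for Sc5d.

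Of the 4 regulators of this route 3 were lower (12% of all genes), Insig1, Srebf1 and Scap. Insig1 (NCBI gene 231070, chr5:28071412-28078662), which retains the SREBP complex and is itself an SREBP target, was at 133, 166 and 134 CPM in Ctrl and 61.4, 64.7 and 62.0 CPM in APPswe. The APPswe libraries lay within 4 CPM of each other, far below the lowest Ctrl library, and Insig1 was called lower at -1.20 (SE 0.11, edgeR adjusted p = 0.00105). Srebf1 (NCBI gene 20787, chr11:60199084-60224186), the SREBP gene linked mainly to fatty acid synthesis, was at 118, 133 and 139 CPM in Ctrl and 63.6, 74.8 and 73.4 CPM in APPswe, without overlap. Its log2 fold change was -0.88 (SE 0.10, edgeR adjusted p = 0.00223), and its locus overlaps Rai1, with a mean of 594 counts. Srebf2, the SREBP gene linked mainly to sterol synthesis, was at 142, 229 and 166 CPM in Ctrl and 110.3, 129 and 133 CPM in APPswe. Its groups were apart, but Ctrl 2 widened the Ctrl spread and the log2 fold change of -0.53 (SE 0.18, edgeR adjusted p = 0.0796) did not pass, while without Ctrl 2 a value of -0.31 did. Scap was lower at -0.51 (SE 0.14, edgeR adjusted p = 0.0382), which was lost without Ctrl 3 or any 1 APPswe library, with edgeR adjusted p up to 0.0959. The FPKM ratio of Srebf1 to Srebf2 was 0.993, 0.646 and 0.968 in Ctrl and 0.681, 0.676 and 0.646 in APPswe, so the groups overlapped through Ctrl 2.

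Of the 8 fatty acid synthesis genes 7 were lower with all 6 libraries (12% of all genes), and 7 without Ctrl 2 (25% of all genes). Acly, which makes cytosolic acetyl-CoA from citrate, was at 186, 316 and 193 CPM in Ctrl and 126, 131 and 130.5 CPM in APPswe, and Acaca, the carboxylase that makes malonyl-CoA, was at 53.3, 84.6 and 55.2 and 39.98, 36.0 and 35.6 CPM. Both were highest in Ctrl 2 and lower in every APPswe library, at -0.84 (SE 0.21, edgeR adjusted p = 0.031) and -0.79 (SE 0.19, edgeR adjusted p = 0.0271). Without Ctrl 2 the values were -0.54 and -0.54, and without any 1 of the APPswe libraries neither gene passed, with edgeR adjusted p up to 0.115 and 0.112. The locus of Acaca overlaps Tada2a. Fasn (NCBI gene 14104, chr11:120805958-120825166), the fatty acid synthase, was at 176, 274 and 204 CPM in Ctrl and 65.0, 76.9 and 74.6 CPM in APPswe. The highest APPswe value was below every Ctrl value, the APPswe mean was 33.1% of the Ctrl mean, and Fasn was called lower at -1.60 (SE 0.17, edgeR adjusted p = 0.00194). Elovl6, which lengthens palmitate, overlapped at 16.3 to 33.8 CPM in Ctrl and 15.6 to 18.8 CPM in APPswe, and its log2 fold change was -0.46 (SE 0.27, edgeR adjusted p = 0.265).

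All 4 desaturase genes were lower (12% of all genes). Scd1 (NCBI gene 20249, chr19:44394450-44407709), which turns stearate into oleate, was at 166, 195 and 167 CPM in Ctrl and 78.6, 69.3 and 72.0 CPM in APPswe. Its neighbour and paralog Scd2 (NCBI gene 20250, chr19:44293676-44306864) was at 625, 928 and 619.9 CPM in Ctrl and 289, 289 and 278 CPM in APPswe. Both were called lower, with log2 fold changes of -1.26 (SE 0.10, edgeR adjusted p = 0.000763) for Scd1 and -1.34 (SE 0.17, edgeR adjusted p = 0.00321) for Scd2, and their groups did not overlap. Fads2 (NCBI gene 56473, chr19:10062765-10101503), the first desaturase of polyunsaturated fatty acid synthesis, was at 129, 212 and 138 CPM in Ctrl and 42.7, 46.1 and 47.6 CPM in APPswe, a mean of 159.8 ± 45.2 CPM in Ctrl and 45.4 ± 2.52 CPM in APPswe (SD, n = 3). Fads1 (NCBI gene 76267, chr19:10182877-10196874), a later desaturase of the same route, was at 246, 264 and 238 CPM in Ctrl and 142, 128 and 125 CPM in APPswe. Fads2 was called lower at -1.81 (SE 0.20, edgeR adjusted p = 0.00192), and Fads1 was lower at -0.92 (SE 0.08, edgeR adjusted p = 0.00114), short of the fold for a call. The FPKM ratio of Fads2 to Fads1 was 0.634, 0.971 and 0.703 in Ctrl and 0.363, 0.433 and 0.459 in APPswe, lower in every APPswe library. The ratio of Scd2 to Scd1 was 3.33, 4.19 and 3.27 in Ctrl and 3.24, 3.68 and 3.40 in APPswe and overlapped. Without Ctrl 2 the log2 fold changes of Fasn, Scd1, Scd2, Fads1 and Fads2 were -1.39, -1.18, -1.12, -0.87 and -1.55. The summed level of the 8 genes was 1600 CPM in Ctrl 1, 2307 CPM in Ctrl 2 and 1632 CPM in Ctrl 3, and 803, 794 and 779 CPM in the APPswe libraries.

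**Figure D4:**
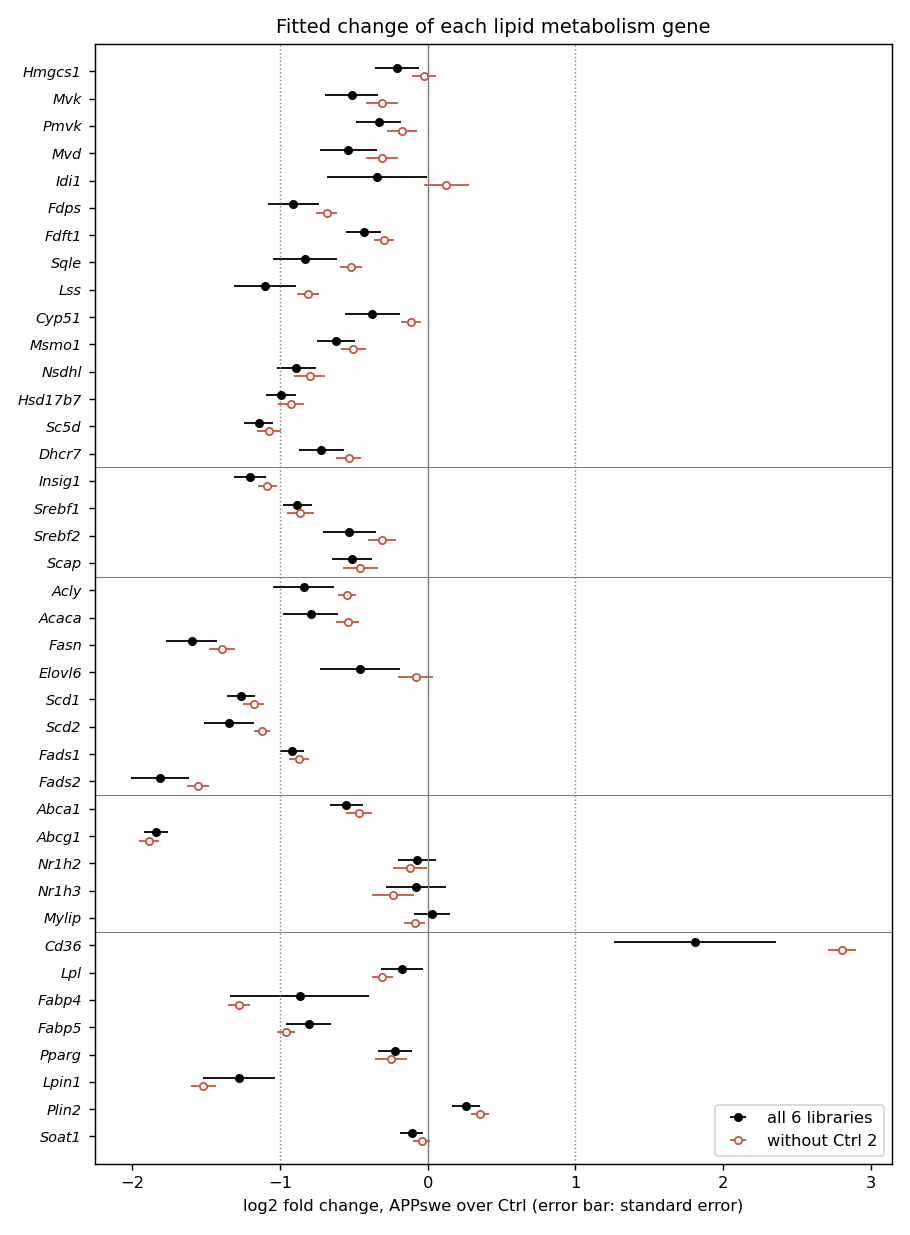
Log2 fold change (APPswe minus Ctrl) with its standard error for the 40 genes, grouped by class, as filled points for all 6 libraries and open points without Ctrl 2, with dotted lines at -1 and 1. Abcg1, Fads2 and Fasn are the farthest to the left, and Cd36, at 1.81 with an SE of 0.55, is the farthest to the right.

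Among the efflux and LXR genes, Abcg1 differed most. Abcg1 (NCBI gene 11307, chr17:31057694-31117984), which exports cholesterol to high-density lipoprotein, was at 93.9, 84.5 and 94.6 CPM in Ctrl and 26.0, 25.1 and 25.2 CPM in APPswe, a mean of 91.0 ± 5.66 CPM in Ctrl and 25.4 ± 0.505 CPM in APPswe (SD, n = 3). The groups were far apart, and Ctrl 2 was the lowest Ctrl library and not the highest, as it was for the synthesis genes. Abcg1 was called lower at -1.84 (SE 0.08, edgeR adjusted p = 0.000287), the smallest adjusted p of the 40 genes. Abca1 (NCBI gene 11303, chr4:53030789-53159988), which exports cholesterol to lipid-poor apolipoprotein, was at 134, 158 and 134 CPM in Ctrl and 109, 92.7 and 88.5 CPM in APPswe, lower at -0.55 (SE 0.11, edgeR adjusted p = 0.0168). That call was lost without APPswe 2 or APPswe 3, with edgeR adjusted p up to 0.0884. The FPKM ratio of Abcg1 to Abca1 was 1.25, 0.963 and 1.27 in Ctrl and 0.428, 0.486 and 0.513 in APPswe. This ratio was lower in every APPswe library than in every Ctrl library.

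The receptors and the other LXR target of this class overlapped between groups. Nr1h2, which encodes LXR-beta, was at 76.1, 72.8 and 86.7 CPM in Ctrl and 62.5, 79.4 and 82.4 CPM in APPswe, with a log2 fold change of -0.07 (SE 0.13, edgeR adjusted p = 0.726). Nr1h3, which encodes LXR-alpha, was at 9.16 to 14.4 CPM in Ctrl and 9.27 to 12.4 CPM in APPswe, at -0.08 (SE 0.20, edgeR adjusted p = 0.809), and overlaps Acp2. Mylip, an LXR target that marks lipoprotein receptors for degradation, was at 38.8, 29.6 and 39.5 CPM in Ctrl and 37.3, 35.9 and 36.9 CPM in APPswe, at 0.03 (SE 0.12, edgeR adjusted p = 0.884). The signs of these 3 values turned under other settings, so no direction is given for them.

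Genes of lipid uptake and storage had values on both sides of 0. Cd36 (NCBI gene 12491, chr5:17781690-17888959), a fatty acid and lipoprotein scavenger receptor, was at 35.1, 136 and 33.6 CPM in Ctrl and 266, 222 and 229.5 CPM in APPswe, a mean of 68.2 ± 58.7 CPM in Ctrl and 239 ± 23.5 CPM in APPswe (SD, n = 3). Every APPswe library was above every Ctrl library, but Ctrl 2 was apart from the other Ctrl libraries. With it the log2 fold change of 1.81 (SE 0.55, edgeR adjusted p = 0.0566) missed the threshold. Without Ctrl 2 the value was 2.81 and Cd36 was called higher (edgeR adjusted p = 7.6e-09), with adjusted p from 7.6e-09 to 0.158 over the fits that leave out 1 library and from 0.0282 to 0.0650 over the other alternatives. Plin2, which coats lipid droplets, was at 305, 364 and 304 CPM in Ctrl and 399, 371 and 395 CPM in APPswe, also without overlap. The log2 fold change of Plin2 was 0.26 (SE 0.10, edgeR adjusted p = 0.0989), and it passed without Ctrl 2 at 0.35. Over the fits that leave out 1 library its adjusted p ran from 0.000733 to 0.260.

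The fatty acid binding proteins, which carry fatty acids in the cytosol, were lower or overlapped. Fabp5 was at 596, 419 and 616 CPM in Ctrl and 327, 303 and 303 CPM in APPswe, lower at -0.80 (SE 0.15, edgeR adjusted p = 0.0132), though leaving out any 1 APPswe library ended that call with edgeR adjusted p up to 0.0703. Processed pseudogenes of Fabp5 could share its reads, so its count is uncertain to that extent. Fabp4 was at 63.4, 15.9 and 63.2 CPM in Ctrl and 24.9, 26.6 and 26.6 CPM in APPswe. Its lowest library was Ctrl 2, so that the groups overlapped at -0.87 (SE 0.47, edgeR adjusted p = 0.226), while Ctrl 1 and Ctrl 3 were above every APPswe library and the value without Ctrl 2 was -1.28 (edgeR adjusted p = 2.32e-07, from 2.32e-07 to 0.454 when 1 library was left out). The FPKM ratio of Cd36 to Fabp4 was 0.0905, 1.38 and 0.0841 in Ctrl and 1.74, 1.35 and 1.40 in APPswe, so Ctrl 2 lay among the APPswe libraries.

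Lpin1, a phosphatidate phosphatase of triglyceride synthesis, was at 46.5, 24.6 and 46.1 CPM in Ctrl and 15.0, 17.05 and 16.3 CPM in APPswe. The groups did not overlap, and Lpin1 was called lower at -1.28 (SE 0.25, edgeR adjusted p = 0.014) and at -1.52 without Ctrl 2. Without any 1 APPswe library it did not pass, with edgeR adjusted p up to 0.0695. Lipoprotein lipase Lpl was at 839, 569.9 and 723 CPM in Ctrl and 649.9, 622 and 618 CPM in APPswe, overlapping at -0.17 (SE 0.14, edgeR adjusted p = 0.413), and passed as lower without Ctrl 2 at -0.31. Pparg, the adipogenic nuclear receptor, was at 11.7 to 12.9 CPM in Ctrl and 9.81 to 10.9 CPM in APPswe, at -0.22 (SE 0.11, edgeR adjusted p = 0.205). Soat1, which esterifies cholesterol for storage, was at 176 to 204 CPM in Ctrl and 171 to 176 CPM in APPswe, at -0.11 (SE 0.08, edgeR adjusted p = 0.365). Adipocyte markers were low in both groups, with Adipoq at 0 to 3.50 CPM in Ctrl and 0.836 to 1.46 CPM in APPswe and Plin1 at no more than 0.674 CPM in any library, and Ctrl 2 had 0 counts of both.

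**Figure D5:**
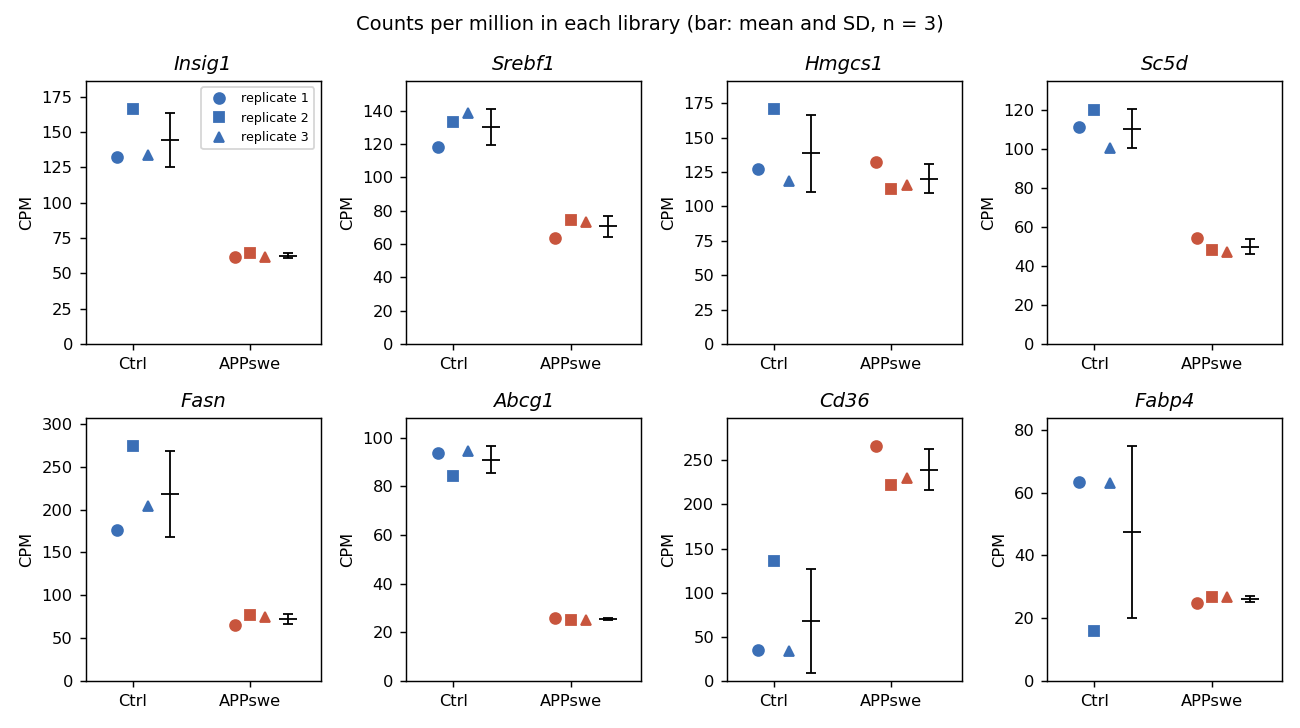
CPM in each library (vertical axes) for Insig1, Srebf1, Hmgcs1, Sc5d, Fasn, Abcg1, Cd36 and Fabp4, 1 panel each, with 1 point per library and the group mean and SD beside them. The APPswe points of Fasn, Sc5d and Abcg1 lie close together below every Ctrl point, and those of Cd36 lie above every Ctrl point, with Ctrl 2 between the other Ctrl libraries and APPswe.

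Levels between genes were compared per length, as the deposited FPKM. Fabp5 had the highest mean, 761 FPKM in Ctrl and 461 in APPswe, followed in Ctrl by Plin2, Lpl, Fdps and Scd2 at 198, 183, 161 and 136 FPKM. In APPswe the means of these were 254, 170, 90.4 and 56.3 FPKM, so that Scd2 was below Cd36, which was at 25.3 FPKM in Ctrl and 94.9 in APPswe. Elovl6 was the lowest, at 3.98 and 3.04 FPKM. Abcg1 and Abca1 had similar means in Ctrl, 15.9 and 13.9 FPKM, and separate ones in APPswe, 4.69 and 9.94 FPKM.

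Genes that were lower were also found among other genes of the same routes. Of 18 other sterol genes, 9 were lower at an edgeR adjusted p of at most 0.05 (12% of all genes). A value below 0 was found for 16 (50.4% of all genes), and the median log2 fold change was -0.44. The called ones were Ch25h and Acat2. Ch25h, which hydroxylates cholesterol to an LXR-activating oxysterol, was at 64.0, 54.6 and 67.7 CPM in Ctrl and 13.7, 14.7 and 15.0 CPM in APPswe, lower at -2.10 (SE 0.11, edgeR adjusted p = 0.000296). Acat2, a thiolase that feeds acetoacetyl-CoA into the mevalonate route, was at 54.8, 77.3 and 57.0 CPM in Ctrl and 30.3, 29.9 and 29.9 CPM in APPswe, lower at -1.07 (SE 0.14, edgeR adjusted p = 0.00385). In both genes the groups were far apart. Of 21 other fatty acid and triglyceride genes 7 were lower (12% of all genes) and 0 were higher (10.5%). By edgeR 0 were called in either direction (7.34% of all genes). At an unadjusted edgeR p of at most 0.05, 1 was higher and 9 were lower, and the median was -0.20. Without Ctrl 2, 11 of the 18 and 10 of the 21 were lower (25% of all genes), and 1 and 4 were higher (23.3%). The difference between these lists was not tested. Of 13 tested fatty acid oxidation genes 1 was higher and 2 were lower, near the shares of all genes (10.5% and 12%). Without Ctrl 2, 3 were higher and 2 were lower (23.3% and 25% of all genes). With all 6 libraries their median was 0.0040, and their summed level was 829 to 846 CPM in Ctrl and 841 to 855 CPM in APPswe.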

How the data were processed

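RNA from 6 libraries, 3 Ctrl and 3 APPswe, was prepared and sequenced by the authors, and groups were taken from the sample titles. The authors deposited whole-number read counts per gene without normalization, FPKM values that they computed, and a comparison of the genotypes (log2 fold changes and p-values) that was not used. GRCm38 is named in the submitters' processing notes, and the aligner and counter are not given in the sources used here. Blank FPKM cells, in 397 or 716 genes by name style and in 0 of the 40 genes, were read as 0.

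The test used edgeR 4.0.16 under R 4.3.3 (TMM, filterByExpr, quasi-likelihood test of APPswe against Ctrl without covariates), with Benjamini-Hochberg adjustment over 13484 genes (13753 without Ctrl 2). Passing meant an adjusted p no higher than 0.05, and a call also needed a log2 fold change of 1 or more in size. The standard error is the log2 fold change over the square root of F. All 40 genes are reported, and of other lipid genes those called. The genes and lists were chosen with earlier results of these data known. A chi-square comparison of counts per degree of freedom gave 1.576 for APPswe 2 and APPswe 3, and 7.349 and 7.851 for the other APPswe pairs. It gave 6.162 for Ctrl 1 and Ctrl 3, and 75.25 and 79.91 for the Ctrl pairs with Ctrl 2. APPswe 2 and APPswe 3 were thus closer than any other pair within a group. Whether they are repeats of 1 sample was not tested, and each library was kept as a replicate. If they are, the p-values are too small.

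Alternatives were DESeq2 1.42.0, limma 3.58.1 on log2(FPKM + 1) and log2(FPKM + 0.1), no TMM, other filters, a stricter threshold of 0.01, a replicate block, the name style as a covariate, each library left out, and, added after seeing the data, medians within each name style. On simulated data for this comparison with log2 fold changes of 2, edgeR called 178 of 195 changed and 8 unchanged genes of 13357. Promoters and gene positions came from RefSeq tables of GRCm38.p6.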

Additional observations from a re-analysis of the deposited data

How the results depend on the processing

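Of the 23 genes that were lower, 11 passed under all 15 alternative fits (Nsdhl, Hsd17b7, Sc5d, Insig1, Srebf1, Fasn, Scd1, Scd2, Fads1, Fads2 and Abcg1), and 0 changed sign. The count of 23 became 11 at a threshold of 0.01, and 11 to 28 when 1 library was left out. It was 13, 11 and 11 without APPswe 1, 2 and 3, when 5.08%, 3.90% and 3.96% of all genes were lower, and 28 without Ctrl 2. It was 17 and 18 with limma on log2(FPKM + 1) and log2(FPKM + 0.1), and Fdft1, Sqle, Lss, Scap and Acaca passed in neither. The count higher, 0, became 1 with DESeq2, 2 with either FPKM fit and 0 to 2 with 1 library left out, and the count called higher became 1 with DESeq2, 1 with either FPKM fit and 0 to 1. The count called lower, 9, ran from 7 to 11 with 1 library left out, and was 6 and 8 with the FPKM fits. The deviations of same-numbered libraries correlated at 0.0838, -0.0432 and 0.190, so the numbers were not taken as pairs. With the replicate number as a block 19 were lower and 9 called, and Fdft1, Sqle, Acly and Acaca no longer passed. The name style as a covariate gave the same counts. The lower share of all called genes was 49.1%, and 36.9% and 36.0% with the FPKM fits.

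Medians within hyphen-named libraries were -0.84 for sterol synthesis, -0.87 for regulators and -0.25 for efflux and LXR, and the last was -0.41 within the libraries named without a hyphen. With 1 library left out the efflux and LXR median ran from -0.23 to 0.0026, turning sign without Ctrl 3. The uptake and storage median was -0.077 and -0.081 with the FPKM fits. Single genes that turned sign were Idi1 (-0.60 to 0.13 with 1 library left out), Nr1h2 (0.00037 without TMM, -0.15 to 0.046 with 1 left out), Nr1h3 (0.0094 and 0.011 with the FPKM fits, -0.23 to 0.083 with 1 left out) and Mylip (-0.089 to 0.097 with 1 left out), none of which passed in any fit. The cause was not tested. The lowest value of a listed gene in any library was 9.16 CPM, above the floor of 3 counts.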

Other observations

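Osteoclast genes were higher in the APPswe libraries: 5 of 6 tested passed as higher (10.5% of all genes), with a median log2 fold change of 3.88. Their summed level was 143 to 223 CPM in Ctrl and 646 to 662 CPM in APPswe. Skeletal muscle genes were higher too, 8 of 8 with a median of 5.43. Without Ctrl 2 the counts were 6 of 6 and 8 of 8 (23.3% of all genes). Of 12 osteoblast genes 3 were higher and 1 was lower by edgeR's adjusted p (10.5% and 12% of all genes). Without Ctrl 2, which had few counts of Bglap, Ibsp or Alpl, 4 were higher and 6 lower (23.3% and 25% of all genes). The part of these lists in the lipid gene values was not tested.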
